A study of Drosophila melanogaster with 6 samples.

Results

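The genes described here lie on the X chromosome of Drosophila melanogaster within 300 kb of Adar, the gene that was mutated in the study. Of 16641 gene rows counted, 78 had all exons on X and their lowest exon start between X:1367758 and X:1982098 (dm3), Adar included. No measured level entered this choice. By biotype 64 of them are protein-coding, 8 are non-coding RNA genes, 2 are small nucleolar RNA genes and 1 is a pseudogene, and 3 identifiers were not paired with a name or a biotype. RNA was sequenced from heads of 3-day-old males raised at 18 C, in 3 libraries of the stock labelled y, sc, Adar5G1 and 3 of w1118. Adar5G1 is a deletion allele of Adar that acts as a null, y and sc are recessive markers at the tip of X, and w1118 carries a mutated white gene and a functional Adar. Each genotype was represented by 1 stock and the labels do not say whether the 3 libraries came from separate collections, so the spread behind each p-value is that of libraries and could be technical.

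Adar encodes the fly adenosine deaminase that converts adenosines to inosines in double-stranded stretches of RNA, and in adult flies it acts mainly in neurons. Genes close to a mutation on a chromosome are seldom separated from it by recombination, so a mutant stock usually keeps the alleles that its founder chromosome carried around the mutation. The loss of Adar, the linked alleles of the Adar5G1 chromosome, the y and sc markers and any other difference between these stocks go together. The design means that they cannot be told apart. Neighbouring fly genes also overlap often. Here 9 of the 78 genes shared exonic bases with another gene on the same strand, where a fragment was counted for both. On the opposite strand 41 shared bases, and there the stranded counting assigned fragments by strand. How many fragments carried the wrong strand was not measured.

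Counts over genes ran from 6872569 to 21639081 per library, and trimmed-mean (TMM) factors, which correct library sizes for composition, from 0.764 to 1.25. No pair of libraries agreed within sampling noise (lowest chi-square per degree of freedom 32.6). The values ran from 32.6 to 318.1 within genotypes and from 51.7 to 327.3 across them. They cannot tell separate collections from technical libraries, and each library was treated as 1 replicate. Neuron markers summed to 3344 to 4783 CPM, the counts scaled by TMM-corrected library size, and photoreceptor markers to 12269 to 15652, while 4 midgut markers were at 0 in every library and 4 matched male tract and germ line markers summed to at most 0.148 CPM, with 1 of them at 0 throughout. In Adar5G1 and w1118, respectively, summed ranges did not overlap for 4 neuron markers (3889 to 4783 against 3344 to 3771), 6 photoreceptor markers (12269 to 14116 against 14417 to 15652), 2 antennal markers (78.1 to 84.3 against 87.8 to 113.6) and 4 fat body markers (4437 to 5777 against 2364 to 3768). They overlapped for glia (870.7 to 964.8 against 934.5 to 1049), muscle (3004 to 3593 against 3271 to 3772) and hemocytes (81.6 to 151.1 against 82.7 to 228.2). The part of these marker levels in the results below was not tested, and in head RNA fewer cells of a type cannot be told apart from less RNA per cell.

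Adar itself was almost absent from the mutant. Its row (FBgn0026086, X:1667758-1682098, plus strand, 8802 exonic bases) held 5, 1 and 19 counts in the mutant libraries, in the order of their replicate numbers, and 2860, 6142 and 2602 in the wild-type ones. Scaled to library size these were 0.369, 0.148 and 0.910 CPM against 332.2, 340.6 and 281.0 CPM. The groups did not overlap, and w1118 replicate 3 was the lowest of the wild type. On the log2 scale Adar fell by 9.04 (SE 0.26, edgeR quasi-likelihood adjusted p = 1.31e-06). Per kilobase of exon, Adar stood at 36.1 CPM in w1118, where the median over the 62 neighbourhood genes that were tested was 8.92.

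Apart from Adar, the summed level of the neighbourhood did not differ beyond replicate spread. The 77 other genes summed to 2979, 3034 and 2947 CPM in the Adar5G1 libraries and to 2975, 2994 and 2900 CPM in w1118. These are 2987 ± 43.7 against 2956 ± 49.98 CPM (SD, n = 3 each), a difference smaller than the spread between replicates. Of the 62 genes with enough counts to be tested, 3 rose in Adar5G1, 7 fell and 52 did not pass an adjusted p of 0.05. Over all 10201 genes tested, 13.9% passed, 8.82% higher and 5.13% lower, against 16.1% of these 62, 4.84% higher and 11.3% lower. With upper-quartile scaling the same 3 and 7 passed, while the split over all genes became 812 higher and 764 lower in place of 900 and 523. The median log2 fold change was 0.06 in the neighbourhood and -0.00 over all genes. Without Adar 9 of 61 passed, or 14.8%, so the share called in either direction lay near that over all genes. By direction the share was 4.92% higher and 9.84% lower. Among the lower ones is FBgn0261548, whose row also counts fragments of an exon it shares with Adar (below), so leaving out Adar does not remove all of its fragments. On X outside the window 10.9% passed, 7.47% higher and 3.39% lower. These differences in share were not tested.

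**Figure D1:**
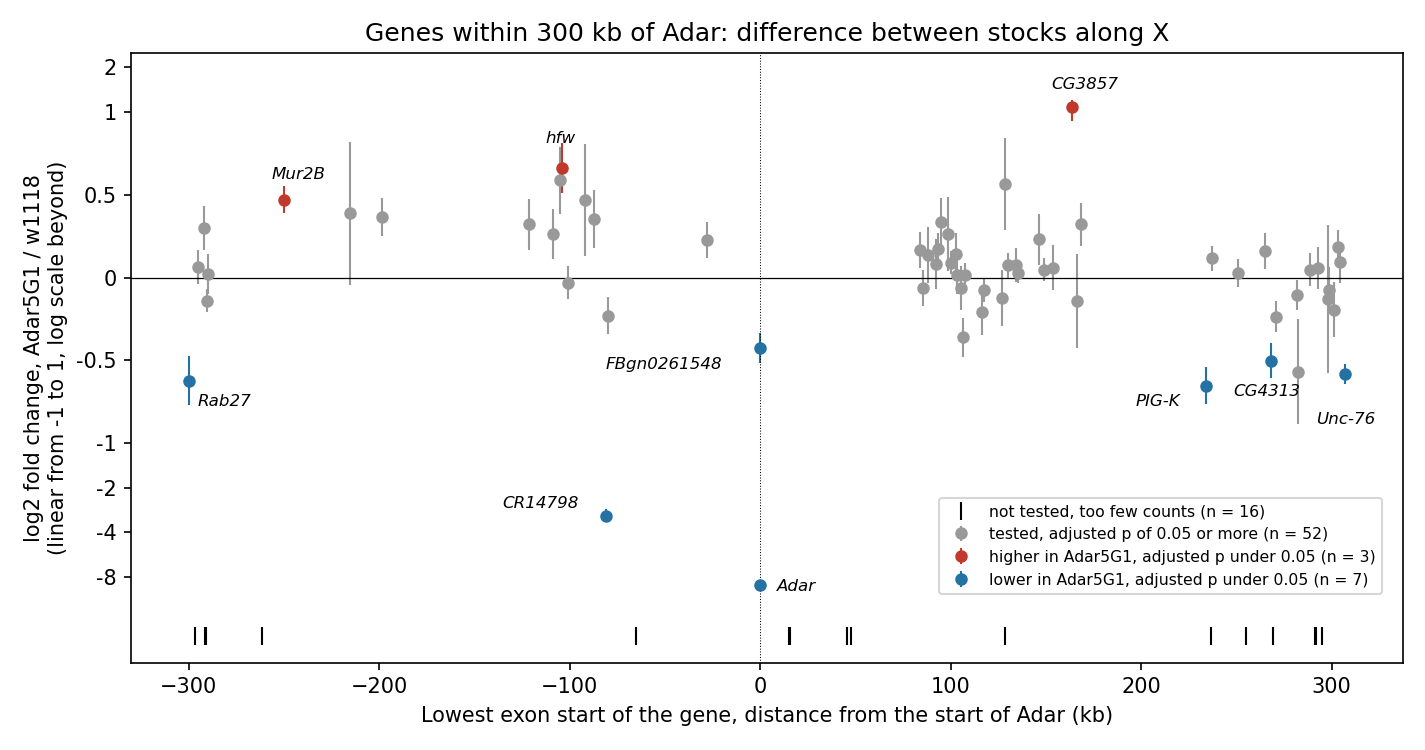
Each point is a gene within 300 kb of Adar, placed by its lowest exon start relative to that of Adar (kb) on the horizontal axis, with its log2 fold change of Adar5G1 over w1118 and standard error on the vertical axis (linear from -1 to 1, log scale beyond, n = 3 libraries each). Red and blue points passed an adjusted p of 0.05, ticks at the bottom mark the 16 genes not tested, and apart from Adar only CR14798 and CG3857 lay beyond 1 in either direction.

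The row that overlaps Adar is FBgn0261548 (X:1667752-1747700, plus strand), which the tables used here pair with no name. Its first exon covers the first exon of Adar: 498 bases are common to both, 5.66% of the exonic length of Adar and 7.40% of that of FBgn0261548. FBgn0261548 fell, with 41.4, 41.6 and 49.1 CPM in Adar5G1 against 62.7, 57.3 and 58.3 CPM in w1118. The groups did not overlap and differed by -0.43 on the log2 scale (SE 0.09, edgeR adjusted p = 0.016). Leaving out Adar5G1 replicate 1, Adar5G1 replicate 2 or w1118 replicate 1 ended this call, and its adjusted p ranged up to 0.645 over the alternatives.

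Fragments in the common exon were counted for both rows, and the files give no counts by exon. If the fragments of Adar were spread evenly over its exonic bases, 161.8, 347.5 and 147.2 of those in the w1118 libraries would lie in that exon. In the mutant libraries at most 1.07 would. Taking these out of FBgn0261548 would leave 43.9, 38.1 and 42.4 CPM in w1118 and 41.4, 41.6 and 49.0 CPM in Adar5G1. On that arithmetic, which rests on even coverage, the groups overlap (44.0 ± 4.33 against 41.5 ± 3.04 CPM, SD, n = 3 each). The true number of shared fragments was not measured. As they count for both rows, they could number at most 5, 1 and 19 in the mutant libraries, the whole count of Adar there. An even share of FBgn0261548, 7.40% of its 561, 282 and 1025 counts, would exceed those limits. Even coverage thus did not hold for FBgn0261548 in the mutant, and the arithmetic takes out only an even share of Adar. Whether the mutant counts of Adar came from FBgn0261548 was not tested.

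Just beyond the 3' end of Adar is a group of scarcely expressed genes. The intron between exon blocks 2 and 3 of FBgn0261548 (X:1682802-1718194) contains 4 of them, mir-981, CG32806, CG14810 and CG14811. None reached the count filter. CG32806 (FBgn0052806, X:1683599-1684451, plus strand), which begins 1.501 kb after the last base of Adar on the same strand, had 0 counts in each Adar5G1 library and 3, 13 and 13 in w1118. Scaled to library size, its summed w1118 level was 11.1-fold above a floor of 3 counts over the Adar5G1 group. This ratio takes the w1118 counts as exact, so it is not a lower limit of the difference. Fitted without the count filter CG32806 passed (edgeR adjusted p = 0.00754), where 3.94% of 14355 genes were called lower. DESeq2 also called CG32806 (adjusted p = 0.0013, with 4.17% of genes lower).

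The microRNA gene mir-981 (FBgn0262178, X:1682894-1682990, minus strand), 0.796 kb from the end of Adar, had 0 counts in each mutant library and 3, 1 and 1 in w1118. The libraries were not of small RNA, so such counts do not measure the mature microRNA. CG14811 (FBgn0029590, X:1715502-1716414, minus strand) likewise had 0 counts in each mutant library and 1, 3 and 2 in w1118. In the unfiltered fit neither passed (edgeR adjusted p = 0.21 and 0.127). Of the 4 genes in that intron, 3 were listed at 0 in every Adar5G1 library and above 0 in every w1118 library. For mir-981 and CG14811 this rests on 5 and 6 counts in all. How often other scarcely counted genes show such a pattern was not measured, so the count is not read as a trait of the intron. CG14810 (FBgn0029589) differed, with 2, 0 and 1 counts in Adar5G1 and 0 in each w1118 library. At this depth a summed level up to 0.0728 CPM in the mutant, the equivalent of 3 counts, could be missed by counting error alone.

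**Figure D2:**
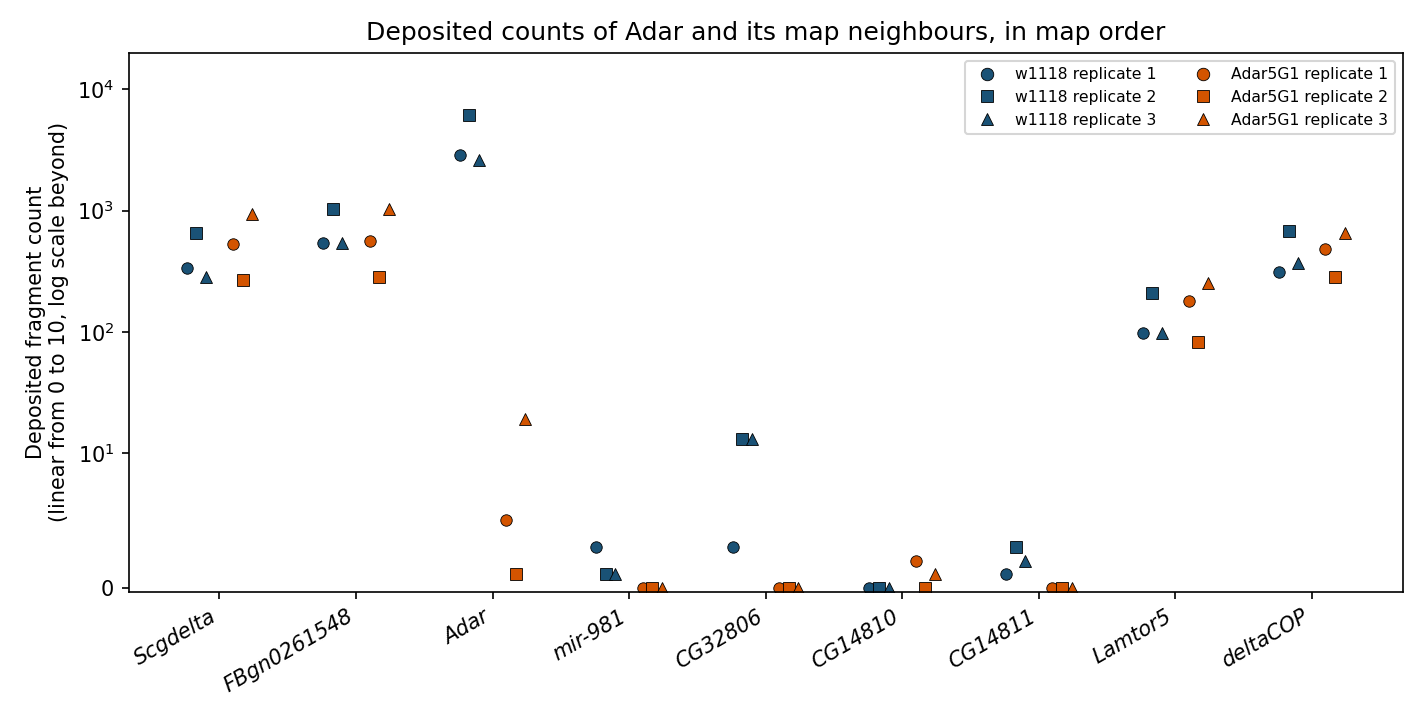
Deposited fragment counts (linear from 0 to 10, log scale beyond) in each of the 6 libraries for Adar and its neighbours in map order, from Scgdelta on the side of lower coordinates to deltaCOP on the other. Adar dropped from 2602 to 6142 counts in w1118 to between 1 and 19 in Adar5G1, and mir-981, CG32806 and CG14811 lay at 0 in every Adar5G1 library, while Scgdelta, Lamtor5 and deltaCOP were counted in all 6 libraries.

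The nearest well-expressed genes on either side did not pass the test. Scgdelta (FBgn0025391, X:1639909-1648098), which encodes the delta subunit of the sarcoglycan complex of muscle membranes, ends 19.7 kb before Adar. It had 39.2, 39.7 and 44.9 CPM in Adar5G1 against 38.9, 36.5 and 30.7 CPM in w1118, ranges that do not overlap although their nearest values differ by little (log2 fold change 0.23, SE 0.11, edgeR adjusted p = 0.227). On the other side Lamtor5, a subunit of the lysosomal Ragulator complex, lies 69.8 kb away. It had 13.2, 12.3 and 12.2 CPM against 11.3, 11.7 and 10.5 CPM (0.17, SE 0.11, edgeR adjusted p = 0.379). The coatomer gene deltaCOP had 36.5 ± 5.18 against 37.9 ± 1.82 CPM (SD, n = 3 each). In all 13 genes whose starts lie 50 to 100 kb beyond Adar were tested, and 0 passed in either direction with edgeR, DESeq2 or limma-voom, while 2 had an unadjusted p under 0.05 in edgeR. They include Pex5, the import receptor of peroxisomes, Vps26, a retromer subunit, and MED18, a Mediator subunit, with log2 fold changes of 0.17, 0.09 and 0.08.

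On the side of lower coordinates the largest change after Adar was that of CR14798 (FBgn0029588, X:1586857-1587876, plus strand), a pseudogene by its biotype. It had 0.517, 0.443 and 0.431 CPM in Adar5G1, or 7, 3 and 9 counts, against 3.02, 4.10 and 4.97 CPM in w1118, or 26, 74 and 46 counts. All mutant libraries lay well below all wild-type libraries. CR14798 was 8.59-fold lower (log2 fold change -3.10, SE 0.30, edgeR adjusted p = 4.78e-04), and it passed in all 13 alternatives in which it was tested. The pseudogene overlaps 229 exonic bases of a6 (FBgn0023130) on the opposite strand. The gene a6 had 13.0, 11.96 and 14.2 CPM against 16.3, 15.8 and 14.3 CPM and did not pass (-0.23, SE 0.11, edgeR adjusted p = 0.231). Between CR14798 and Adar lies only CG3795 besides a6 and Scgdelta, with 1 count in all 6 libraries together.

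Next on that side, 2 genes rose. The gene hfw (FBgn0001189, X:1563603-1567641), which encodes a leucine-rich repeat protein, had 28.7, 29.97 and 24.8 CPM in Adar5G1 against 14.2, 17.2 and 21.1 CPM in w1118. The wild-type libraries were spread widely and the groups still did not overlap (0.66, SE 0.15, edgeR adjusted p = 0.0198). Leaving out replicate 1 or 2 of either genotype ended the call of hfw. Mur2B (FBgn0025390, X:1417587-1562821), which encodes a mucin-related protein, had 65.5, 60.1 and 55.7 CPM against 42.3, 44.4 and 44.0 CPM. Each mutant library exceeded each wild-type library, by 0.47 on the log2 scale (SE 0.08, edgeR adjusted p = 0.00666).

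The genes from Mur2B to b6, along 169 kb, mostly lay on the same side of 0. This stretch was picked after the values were seen and is given with no test. Of its 10 tested genes 9 had log2 fold changes above 0, from 0.26 to 0.66, and the median was 0.38, while 2 passed the test. The groups did not overlap for 7 of the 10, where 31.5% of all tested genes had no overlap. CG3740, which shares 252 exonic bases with Mur2B on 1 strand, had 8.79, 9.30 and 8.91 CPM against 7.08, 6.71 and 3.89 CPM (0.59, SE 0.20, edgeR adjusted p = 0.0982). FBgn0000210, a row of 16093 exonic bases that starts within the span of Mur2B, had 66.7 ± 9.51 against 51.9 ± 4.54 CPM (0.37, edgeR adjusted p = 0.0736). The gene dor, whose product sorts cargo to lysosomes, had 20.1 ± 3.89 against 16.6 ± 0.783 CPM (0.26, edgeR adjusted p = 0.328). The exception was CG32809 with 222.9 ± 25.1 against 228.0 ± 19.2 CPM, and FBgn0029584 and the small non-coding RNA gene FBgn0065095, in the same stretch, had log2 fold changes of 0.32 and 0.39. All 52 bases of FBgn0065095 lie in exons of Mur2B on the same strand, so its fragments were counted for Mur2B too and its value is not separate from that of Mur2B.

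On the side of higher coordinates the gene that rose was CG3857 (FBgn0023520, X:1831733-1834073, minus strand), 149.6 kb from Adar. It had 45.2, 39.4 and 48.4 CPM in Adar5G1 against 23.1, 22.6 and 17.4 CPM in w1118, with every mutant library far above every wild-type library. CG3857 was 2.11-fold higher (log2 fold change 1.08, SE 0.13, edgeR adjusted p = 0.00123) and passed in all 14 alternatives. It shares no exonic bases with another gene. Its neighbours on either side were not called: CG11596 had 11.995 ± 1.79 against 11.6 ± 0.949 CPM, and CG3587 had 2.17 ± 0.663 against 2.33 ± 0.0582 CPM (SD, n = 3 each).

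The falls on that side were those of PIG-K, CG4313 and Unc-76. PIG-K (FBgn0023545, X:1901944-1903397), which encodes the catalytic subunit of the transamidase that attaches proteins to glycolipid anchors, had 14.04, 14.3 and 12.1 CPM in Adar5G1 against 20.1, 20.4 and 22.8 CPM in w1118 (-0.65, SE 0.11, edgeR adjusted p = 0.00594). Its groups were clearly apart. CG4313 (FBgn0025632, X:1935901-1949447) had 11.6, 10.2 and 10.7 CPM against 16.1, 15.2 and 14.9 CPM (-0.50, SE 0.10, edgeR adjusted p = 0.0145). Its exons overlap Actn and usp by 196 bases and Sik2 by 105 bases on the opposite strand, and none of these 3 was called.

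Unc-76 (FBgn0040395, X:1974643-1987981), which encodes an adaptor of the kinesin motor used in axonal transport, had the smallest p-value of the neighbourhood after Adar and CR14798. It had 149.5, 156.6 and 160.6 CPM in Adar5G1 against 233.2, 236.7 and 229.2 CPM in w1118. Within each group the libraries differed by little and between groups they were far apart (-0.58, SE 0.06, edgeR adjusted p = 7.3e-04). At the other end, Rab27 (FBgn0025382, X:1367917-1371007), a small GTPase of secretory vesicle traffic, had 5.10, 4.72 and 4.21 CPM against 6.62, 7.26 and 7.56 CPM (-0.62, SE 0.15, edgeR adjusted p = 0.0242). This was the least stable call, ended by leaving out replicate 2 or 3 of either genotype and by DESeq2.

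**Figure D3:**
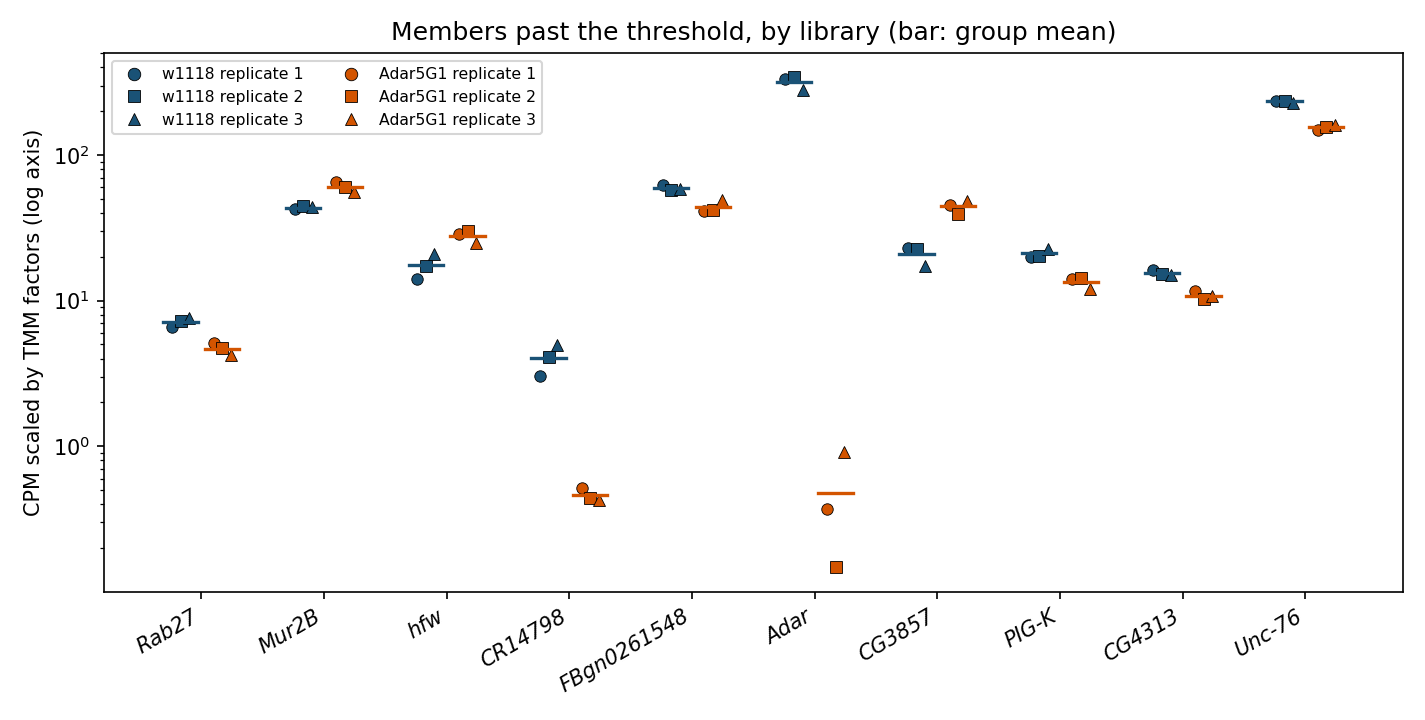
CPM scaled by TMM factors (log axis) of the 10 genes near Adar that passed the test, in map order, with 1 symbol per library and a bar at each group mean (n = 3 each). In all 10 genes the Adar5G1 libraries lie wholly above or wholly below the w1118 libraries, and outside Adar and CR14798 the largest shift is that of CG3857, at 2.11-fold.

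Rab27 and Unc-76 are also the genes just inside the edges of the 300-kb window. Inside the lower edge they are followed by mei-38, with 12 counts in Adar5G1 and 3 in w1118, and rush, with a log2 fold change of 0.06. Outside that edge CG14780 was not tested, and pck and CG32808 had -0.10 and 0.12. Inside the upper edge CG16903 and CG4025 had 0.09 and 0.19. Outside it csw, a phosphatase of receptor tyrosine kinase signalling, and ph-d, a Polycomb group gene, had 0.16 and -0.13, and FBgn0086043 was not tested.

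Ranked by CPM per kilobase of exon over all 6 libraries, Unc-76 was the only one of the 6 most abundant genes to pass the test. Ranked in w1118 alone, Adar takes place 6 ahead of CG14818, which makes 2 of 6. The ribosomal protein gene sta stood at 127.3 CPM per kilobase over all libraries. Its values were 191.4, 220.7 and 152.6 CPM in Adar5G1 against 139.3, 150.2 and 168.1 CPM in w1118, overlapping groups (0.30, SE 0.13, edgeR adjusted p = 0.198). The beta-catenin gene arm (76.8 CPM per kilobase) had 280.5, 273.3 and 248.6 CPM against 278.7, 272.3 and 295.2 CPM. The alpha-actinin gene Actn (55.8), Unc-76 (47.4), east (37.8), which encodes a protein of the nuclear interior, and CG14818 (33.3) followed on that scale. Actn, east and CG14818 had log2 fold changes of 0.03, 0.12 and -0.06, and none passed. Over the 52 genes not called, the median size of the log2 fold change was 0.14 with a median SE of 0.12, and 49 of the 52 had a size below 0.5. A p-value that misses the threshold does not show that these genes were equal in the stocks.

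By role, 1 of 12 listed genes was called. Of 4 membrane traffic genes (Rab27, dor, deltaCOP and Vps26) 1 fell. Of the transcription factor genes mip130, a subunit of a repressor complex that includes the retinoblastoma protein, and usp, the partner of the ecdysone receptor, 0 of 2 passed with log2 fold changes of 0.08 and 0.16. The same held for 0 of 2 cytoskeletal or nuclear scaffold genes (east and Actn), 0 of 2 translation genes (sta and mRpL16, the latter at -0.21), the signalling gene arm (-0.08) and Edem1 (0.07), which acts in the disposal of misfolded glycoproteins. Rab27 was the only edgeR call among them. Of the other 11, 0 passed with DESeq2 or limma-voom, and 0 had an unadjusted edgeR p under 0.05. Genes with neuronal roles outside these lists were Nmdar2, an NMDA receptor subunit, with 98.0 ± 13.8 against 96.7 ± 11.8 CPM, and inc, which promotes sleep, with 50.02 ± 2.06 against 55.1 ± 1.93 CPM (-0.14, edgeR adjusted p = 0.265). The glial receptor gene moody, itself a glial marker, had 59.0 ± 3.09 against 69.6 ± 7.22 CPM (-0.24, edgeR adjusted p = 0.145). With 1 to 4 genes each, these lists are too short to set against the 13.9% called over all genes.

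With both sides pooled and genes placed by their lowest exon start, the share called rose between 50 and 300 kb from Adar. It was lower between 300 and 600 kb. At lower coordinates the lowest start is the end of a gene farther from Adar. Mur2B was thus counted between 200 and 300 kb, although its span ends 104.9 kb before Adar. Shares by the nearer end were not computed, so the rise holds for this placing only. Besides Adar, 2 genes starting within 50 kb were tested, Scgdelta and FBgn0261548, and 1 was called. That call is FBgn0261548, which shares exonic bases with Adar. Between 50 and 100 kb 1 of 17 was called (5.88%), between 100 and 200 kb 2 of 19 (10.5%), between 200 and 300 kb 5 of 23 (21.7%), and between 300 and 600 kb 11 of 68 (16.2%). The sides differed. Over the same intervals from 50 kb outwards the shares were 25%, 16.7%, 28.6% and 7.14% at lower coordinates. At higher coordinates they were 0%, 7.69%, 18.8% and 22.5%. The tested genes per interval ran from 4 to 28 on the lower side and from 13 to 40 on the higher side. The rises and falls changed balance beyond the window on the side of higher coordinates, where 7 of 40 rose and 2 fell between 300 and 600 kb. At lower coordinates 1 of 28 rose and 1 fell there. For comparison, 6 of 39 tested genes within 300 kb of w and 5 of 48 within 300 kb of y and sc were called, 15.4% and 10.4%. On X outside the window it was 173 of 1593 (10.9%), and on 2L, 2R, 3L, 3R and 4 together 1217 of 8415 (14.5%). These shares are descriptions, and their differences were not tested.

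**Figure D4:**
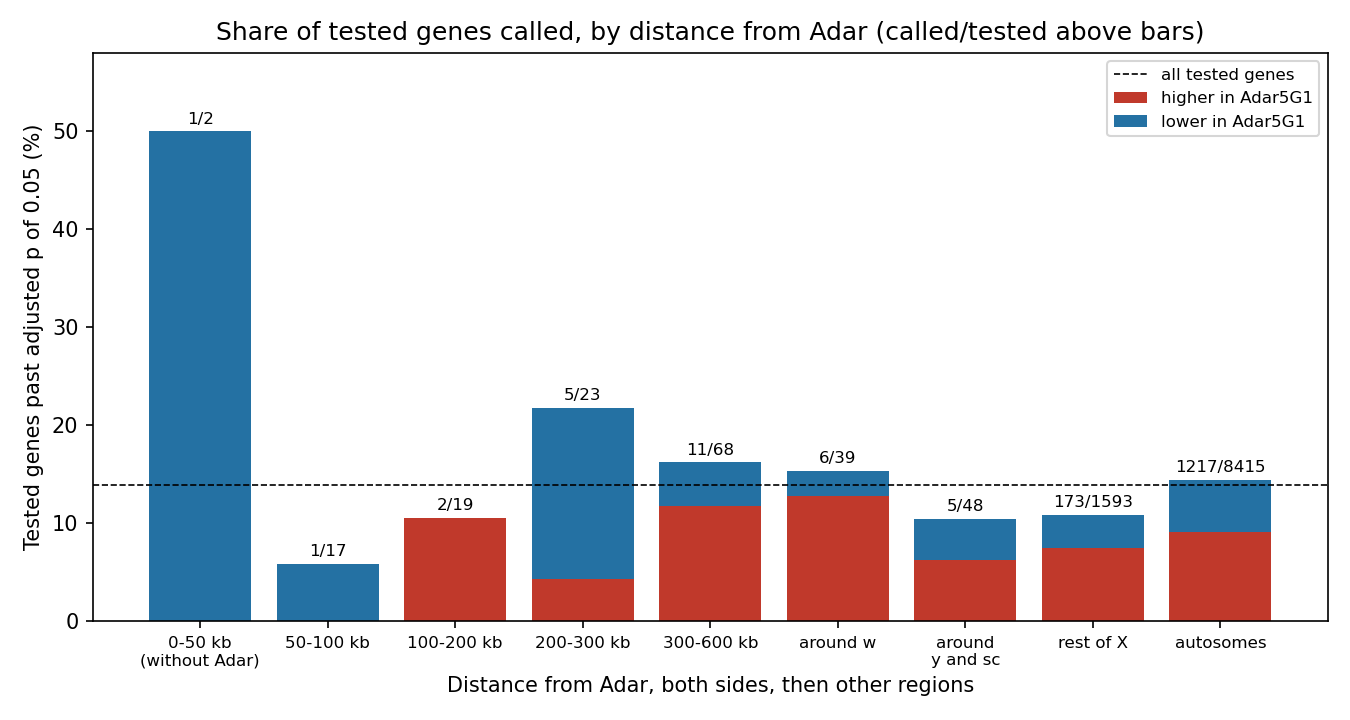
Share of tested genes past an adjusted p of 0.05 (percent, from 0), stacked as higher (red) and lower (blue) in Adar5G1. Genes are grouped by distance of their lowest exon start from Adar on both sides, beside other regions. Called over tested genes stand above each bar, and the share over all genes is dashed. The first bar rests on 2 genes, and its only call is FBgn0261548, which shares exonic bases with Adar. The other bars lie between 5.88% and 21.7% around the 13.9% over all genes.

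Groups did not overlap for 26 of the 62 tested genes, or 41.9%, beside 31.5% over all genes tested. Among the 52 not called, 16 had no overlap, 13 of them higher and 3 lower in Adar5G1. One of those lower was Coa8, which encodes an assembly factor of cytochrome c oxidase, with 12.6, 10.6 and 13.6 CPM against 15.4, 16.97 and 15.4 CPM (-0.36, SE 0.12, edgeR adjusted p = 0.0864). Another higher one was Hr4, a nuclear receptor gene, with 8.35, 8.56 and 7.997 CPM against 6.74, 6.04 and 7.24 CPM (0.32, SE 0.13, edgeR adjusted p = 0.152). The remaining 16 genes of the window had too few counts, from 1 to 52 over the 6 libraries.

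Of the 10 calls, 3 rested on no particular setting: those of Adar, CR14798 and CG3857 held in every alternative that tested them. With library totals in place of TMM factors the other 7 were lost, at log2 fold changes of unchanged sign.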

How the data were processed

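The values deposited by the authors are raw counts of fragments, a whole number for each gene in each library. FlyBase annotation 5.53 and featureCounts 1.4.5-p1 were used, per the file headers, on exons with reversed strand, and a fragment overlapping several genes was given to each. The submitters' processing notes name TopHat, with no version, and dm3, and the labels' protocols state ribosomal RNA depletion and 75-bp paired reads. The other column used, the exonic length of each gene, is as deposited by the authors.

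Symbols were matched by gene ID (15924 of 16641). The row without an ID (0.369% to 0.633% of counts) was left out. The test was edgeR 4.0.16 in R 4.3.3 over all genes: filterByExpr (minimum count 10), TMM, quasi-likelihood F test on group, Benjamini-Hochberg adjustment, threshold 0.05. SE is the log2 fold change over the square root of F. The fit was tested on simulated data, in 5 draws. It called 38.8% of changes of 1.5-fold, 82% of those of 2-fold and 0.12% of unchanged genes, so many changes of 1.5-fold would be missed.

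Alternatives were DESeq2 1.42.0, limma-voom (3.58.1), scaling by RLE, by upper quartiles or by library totals, a count minimum of 50 or none, the replicate number as a block, leaving out each library, an adjusted p of 0.01, windows of 100 and 600 kb, and leaving out genes sharing exons. The members and lists were chosen with earlier results of these data known. Named genes were Adar, its overlapping and nearest genes, all calls, the 6 most abundant, and those at the edges and in the role lists, while Pex5, MED18, Nmdar2, inc, moody, Coa8, Hr4, CG11596, CG3587 and the genes of the Mur2B stretch were added after their values were seen. Of the listed markers, 4 of 5 matched for neurons, 2 of 4 for the antenna and 4 of 6 for male tract and germ line. The 2 male dosage compensation RNAs had no match, and the other marker lists matched in full. Counting intervals and floors cover counting error only.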

Additional observations from a re-analysis of the deposited data

How the results depend on the processing

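All 10 called genes kept their sign in every alternative that tested them. The RLE and upper-quartile scalings, limma-voom and the unfiltered fit kept all 10 calls, and a minimum count of 50 kept the 9 it tested. With total counts only, 1 gene was higher and 2 were lower in place of 3 and 7. Leaving out each library gave 2 to 5 higher and 5 to 6 lower, the 5 higher without Adar5G1 replicate 3, where sta and dor also passed. An adjusted p of 0.01 left 4 lower. A window of 100 kb held 0 higher with edgeR, 0 with DESeq2 and 1 at an unadjusted p under 0.05, and 3 lower. A window of 600 kb held 11 higher. The labels do not say whether equal replicate numbers mark a batch. Deviations from group means correlated at 0.09, -0.17 and -0.27 for equal numbers and at -0.16 to 0.31 for unequal ones. With 3 libraries centred in each group, these values cannot exclude a shared batch. With the replicate block 2 genes were higher and 4 lower. The edgeR adjusted p with the block was 0.063 for CG4313, 0.0683 for FBgn0261548, 0.0745 for hfw and 0.103 for Rab27, the 4 calls it did not keep. The cause of these differences was not tested. Adar ran from a log2 fold change of -10.02 to -8.80. Depth limits the 16 genes below the count filter, for which an absence cannot be told from a low level.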
